A study of Mus musculus with 6 samples.

Results

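CXC chemokines are small secreted or membrane-tethered proteins that guide leukocyte migration, and 10 genes of the family were followed here: Cxcl1, Cxcl2, Cxcl3, Ppbp, Pf4, Cxcl9, Cxcl10, Cxcl13, Cxcl14 and Cxcl16. They were found by gene symbol in the deposited counts table, which holds 21847 genes. Of the 10 genes 9 had a row, and Cxcl13 was not analysed here. RNA-seq was done on mouse spleen cells that the labels call macrophages, in 2 groups of 3 libraries. Qtracker positive libraries came from cells carrying Qtracker, a fluorescent quantum dot dye that had been loaded into human mesenchymal stromal cells (MSCs) of cord tissue, and the series takes these cells to have engulfed MSCs. Qtracker negative libraries came from cells of the same kind of culture without the label. Both groups had been T cell-depleted splenocytes and had spent 3 days with the labelled MSCs, so the negative cells were also exposed to MSCs. The sort took CD11b positive cells, and the labels name both Ly6G and Ly6C as the marker these cells lacked. Strain, sex and age are not given in the labels used here.

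CXC chemokines are named for a residue that lies between the first pair of conserved cysteines. Members with a glutamate-leucine-arginine motif before those cysteines, among them CXCL1, CXCL2, CXCL3 and the product of Ppbp, act on CXCR2 and draw neutrophils. CXCL9 and CXCL10 are induced by interferons and act on CXCR3 of activated T cells and NK cells, CXCL13 draws B cells through CXCR5, and CXCL16 binds CXCR6. In the spleen, macrophages make several of these ligands, while Pf4 and Ppbp are best known from megakaryocytes and platelets.

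Library totals were 42490705 to 55506993 counts in the Qtracker positive group and 33943090 to 44061187 in the Qtracker negative group. The series calls the replicates paired, and libraries with the same number were treated as pairs. Replicates 2 and 3 were close to each other and replicate 1 stood apart in both groups. Over 4122 well-counted genes the median absolute log2 difference between replicates 2 and 3 was 0.0855 in positive and 0.0549 in negative libraries, against 0.286 to 0.296 in positive and 0.449 to 0.454 in negative libraries for replicate 1 against the others. The replicates are called biological in the design text, but which animals they came from is not stated. The p-values therefore rest on the variation among these libraries, part of which may be technical. All 8 macrophage markers examined were present in every library (Adgre1, Cd68, Csf1r, Mertk, Fcgr1, Itgam, Lyz2 and Mrc1), with summed levels of 26934 to 34974 CPM, which are counts scaled for library size and composition, in positive libraries. In negative libraries the sum was 1205 CPM in replicate 1 and 15022 and 14863 CPM in replicates 2 and 3. In the edgeR test given below, 4 of the 8 markers were called higher in positive cells (Adgre1, Cd68, Mertk and Mrc1). The share called higher over all tested genes was 18.5%. Lyz2 made up most of each sum, with 19335, 24542 and 27064 CPM in positive libraries and 711.6, 11496 and 11425 CPM in negative libraries. Itgam encodes CD11b, the marker of the sort. It had 2715, 1819 and 1835 CPM in positive libraries and 259.4, 2267 and 2210 CPM in negative libraries. The part of these markers in the results below was not tested. In sorted bulk samples, more cells of a type and more RNA per cell cannot be told apart.

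Cxcl3, Ppbp and Pf4 were higher in Qtracker positive cells, and the other members were not called in either direction. Of the 9 genes 8 had enough counts to be tested, and Cxcl1 did not pass the filter on low counts. Of the 8, 3 were higher and 0 were lower by edgeR's quasi-likelihood test with the pair as a block (Benjamini-Hochberg adjusted p under 0.05 over 14605 genes). Over all tested genes 18.5% were higher and 16.3% lower. At an unadjusted p under 0.05, 6 of the 8 were higher and 0 lower, against 50.3% of all tested genes in either direction. All 8 had a positive log2 fold change, with a median of 2.35 against -0.01 over all tested genes. In 7 of the 8, with Cxcl10 as the exception, every positive library stood above every negative library in CPM, as it did for 30.0% of all tested genes. The number of members called higher changed with the test and the replicates. By DESeq2 it was 7 higher and 0 lower, against 23.4% higher and 25.1% lower over all tested genes, by limma-voom 6 (20.6%) and without the replicate block 6 (19.9%). Without replicate 1 it was 7, against 37.1% of all genes in that setting. Without replicate 2 it was 1, Pf4, against 0.917%. Without replicate 3, and with replicates 2 and 3 summed, edgeR called 0 members and 0.0% of all genes. At an unadjusted p under 0.05, 6 and 5 of 9 tested members were higher in these settings. Over all genes it was 2064 of 14803 and 2221 of 15570. It was 3 with median-of-ratios scaling (17.4% of all genes), library totals alone (10.8%), no filter (11.4%) and a stricter filter (20.0%), and 4 on the authors' normalized table (13.1%).

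**Figure D1:**
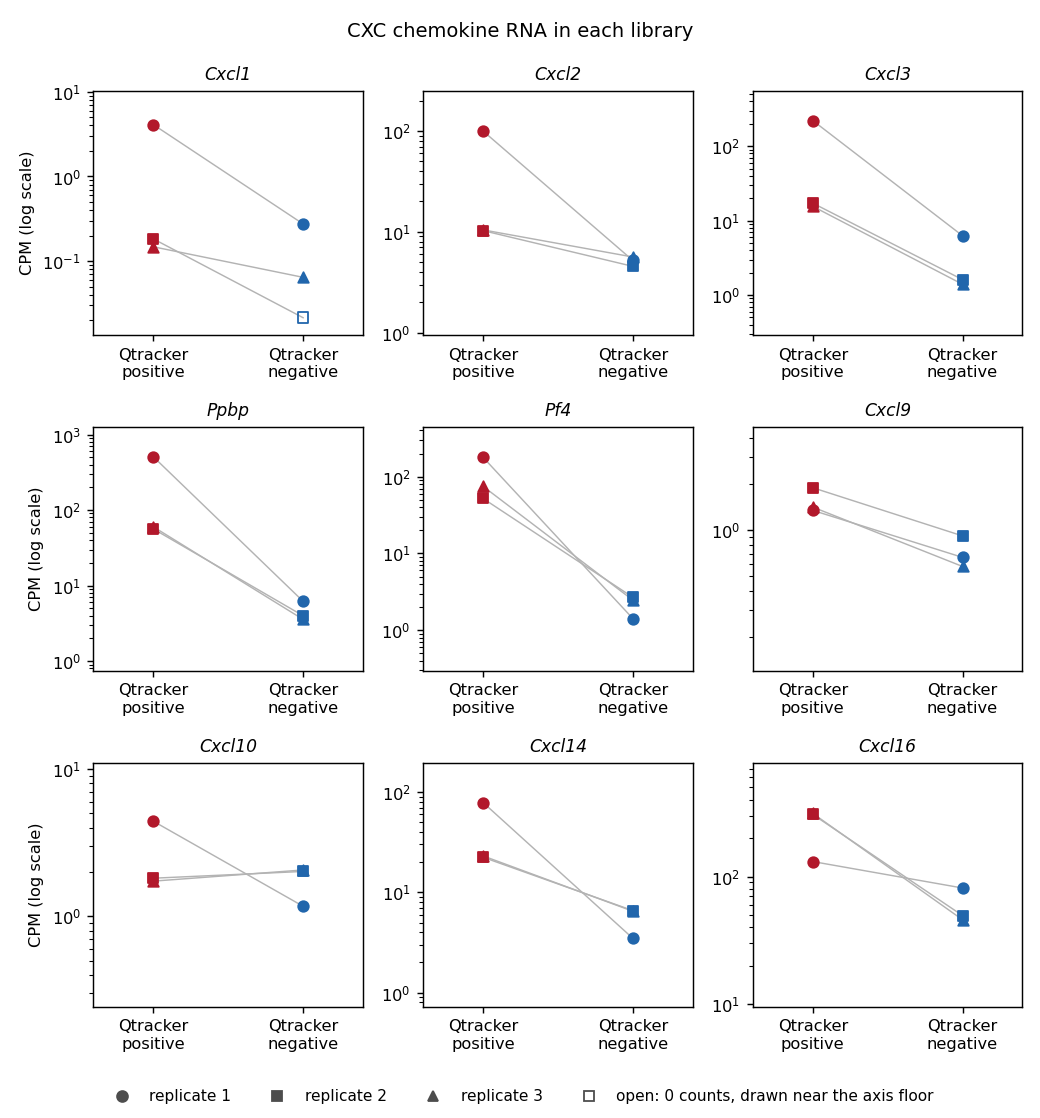
Each panel plots CPM on a log axis for a CXC chemokine gene, with Qtracker positive libraries on the left, Qtracker negative libraries on the right, and a line joining libraries of the same replicate number. Replicate 1 of the positive group (circle) lies far above the other positive libraries for Cxcl1, Cxcl2, Cxcl3 and Ppbp, and below them for Cxcl16.

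Cxcl1, Cxcl2 and Cxcl3, the neutrophil-attracting ligands that immune cells make on activation, lie close together on chromosome 5 (mm10). Cxcl3 runs from 90786103 to 90789600, Cxcl1 from 90891241 to 90893115 and Cxcl2 from 90903871 to 90905938, all on the plus strand. Their promoters are shown because these related genes differed in level and in response in the same libraries. The 110 bases before each start in RefSeq (GRCm38.p6, the assembly of mm10) are given, 5′ to 3′ on the plus strand, with matches to a motif of the kind bound by NF-kappaB (GGG, any 2 bases, TTTCC) in capitals.
Cxcl1, chr5:90891135-90891244: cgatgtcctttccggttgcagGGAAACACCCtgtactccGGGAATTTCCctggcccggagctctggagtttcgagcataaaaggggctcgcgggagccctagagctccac
Cxcl2, chr5:90903789-90903898: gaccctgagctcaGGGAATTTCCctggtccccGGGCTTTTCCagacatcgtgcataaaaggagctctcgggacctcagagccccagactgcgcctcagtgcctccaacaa
Cxcl3, chr5:90785991-90786100: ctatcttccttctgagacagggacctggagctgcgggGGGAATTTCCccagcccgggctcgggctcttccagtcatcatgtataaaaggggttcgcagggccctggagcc
All 3 hold the match GGGAATTTCC, which begins 71 bases before the RefSeq start of Cxcl1, 97 bases before that of Cxcl2 and 73 bases before that of Cxcl3. The gene positions above are from GENCODE, whose starts differ from these, so the windows of Cxcl1 and Cxcl2 run past the GENCODE start and that of Cxcl3 ends before it. Cxcl1 and Cxcl2 each have another match, on the minus strand in Cxcl1. Both strands of the 250 bases before the start were searched. Windows were found for 9 of the 10 members (not Cxcl16), and these 3 were the only members with a match, against 1.41% of 32851 promoter windows. No match overlapped a match to the other motif searched (GAAA, any 2 bases, GAAA).

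Cxcl3 had 220.3, 17.16 and 15.54 CPM in Qtracker positive replicates 1, 2 and 3, and 6.256, 1.611 and 1.396 CPM in Qtracker negative replicates 1, 2 and 3. Replicate 1 was the highest library of both groups, and the groups did not overlap. The log2 fold change was 4.02 ± 0.48 (standard error, edgeR adjusted p = 0.0148), with 5.13, 3.38 and 3.44 in pairs 1, 2 and 3. The call was lost without replicate 2 (edgeR adjusted p = 0.052), without replicate 3 (0.0641) and with replicates 2 and 3 summed (0.059).

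Cxcl2 had 99.97, 10.28 and 10.45 CPM in positive libraries and 5.202, 4.543 and 5.626 CPM in negative libraries. The negative libraries were alike, while positive replicate 1 was 9.64 times the mean of the other positive libraries. Its log2 fold change of 2.03 ± 0.86 did not pass (edgeR adjusted p = 0.143), with 4.25, 1.17 and 0.89 in pairs 1, 2 and 3. Without replicate 1 the change was smaller, 1.05, and passed (edgeR adjusted p = 0.000678), and by DESeq2 it passed at 1.98 (adjusted p = 0.0148). Cxcl2 and Cxcl3 shared 161 of their 31-base words, which is 7.59% of the words of Cxcl2, so part of their reads may have been split between them.

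Cxcl1 was the lowest of these 3 ligand genes in every library per exon length. It had 155, 9 and 7 counts in positive replicates 1, 2 and 3, and 12, 0 and 3 counts in negative replicates 1, 2 and 3. In pair 1 the scaled ratio was 14.9 (95% interval 8.29 to 29.5), and in pair 3 it was 2.30 (0.524 to 13.75). These intervals cover counting error only. In pair 2, where the negative library had 0 counts, the positive library was 2.73-fold above a floor of 3 counts. That value carries no interval and is not a lower bound. The groups overlapped, since negative replicate 1 exceeded positive replicates 2 and 3 in CPM. With no filter on low counts its log2 fold change of 3.22 did not pass (edgeR adjusted p = 0.0807).

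**Figure D2:**
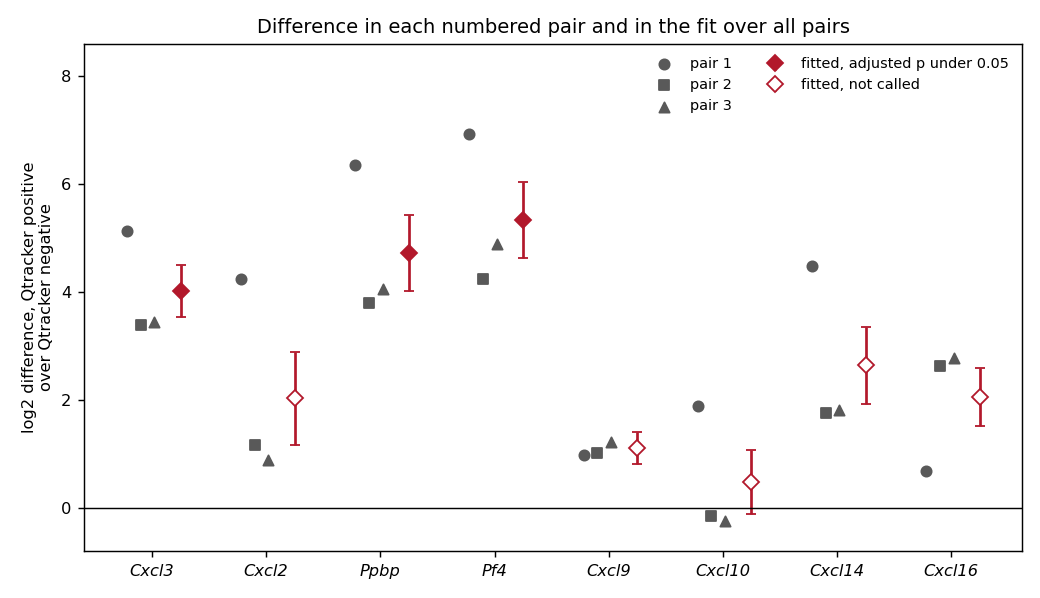
Log2 differences between Qtracker positive and Qtracker negative libraries are plotted for the 8 tested genes, in each numbered pair (grey) and as fitted over all pairs (diamonds, bars are standard errors, filled where the adjusted p was under 0.05). Pair 1 is the largest of the 3 for 6 genes, and it is the smallest for Cxcl9, at 0.97, and for Cxcl16, at 0.69.

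Ppbp encodes pro-platelet basic protein, a precursor that proteases trim to a CXCR2 ligand, and Pf4 encodes platelet factor 4, a heparin-binding chemokine without the glutamate-leucine-arginine motif. Both rose in Qtracker positive cells, by more than any other tested member on the log2 scale. They are neighbours on chromosome 5, Ppbp from 90768518 to 90770063 and Pf4 from 90772435 to 90773383, both on the plus strand and upstream of Cxcl3. The 110 bases before each RefSeq start, which for both is also the GENCODE start, are shown for contrast with Cxcl1, Cxcl2 and Cxcl3, and hold no match to either motif.
Ppbp, chr5:90768408-90768517: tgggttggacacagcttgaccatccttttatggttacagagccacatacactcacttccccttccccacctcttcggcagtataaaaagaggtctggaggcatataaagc
Pf4, chr5:90772325-90772434: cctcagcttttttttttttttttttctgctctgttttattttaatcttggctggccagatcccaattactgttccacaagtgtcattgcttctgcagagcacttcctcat

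Ppbp had 506.9, 56.22 and 59.99 CPM in positive replicates 1, 2 and 3, and 6.187, 3.983 and 3.564 CPM in negative replicates 1, 2 and 3. Positive replicate 1 was 8.72 times the mean of the other positive libraries, and the groups did not overlap. The log2 fold change was 4.72 ± 0.70 (edgeR adjusted p = 0.0200), with 6.35, 3.80 and 4.06 in pairs 1, 2 and 3. The call was lost without replicate 2 (edgeR adjusted p = 0.0586), without replicate 3 (0.0719) and with replicates 2 and 3 summed (0.0652).

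Pf4 had 178.4, 51.94 and 74.77 CPM in positive libraries and 1.421, 2.685 and 2.469 CPM in negative libraries. It had the largest fitted change of the 8 tested members, 5.34 ± 0.71 on the log2 scale (edgeR adjusted p = 0.0168), and 6.93, 4.25 and 4.90 in pairs 1, 2 and 3. The lowest positive library stood well above the highest negative library. Unlike for Cxcl3 and Ppbp, negative replicate 1 was the lowest library, at 0.551 times the mean of the other negative libraries. Its call held without replicate 2 (edgeR adjusted p = 0.0489) and was lost without replicate 3 (0.0685) and with replicates 2 and 3 summed (0.0598).

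Markers of megakaryocytes and platelets went in both directions between the groups. Their summed level over 10 genes was 3.84 to 6.29 CPM in positive libraries and 22.3 to 58.6 CPM in negative libraries. Itga2b, the integrin chain of the fibrinogen receptor, made up most of each negative sum, with 18.84, 52.77 and 50.85 CPM. It had 3.012, 2.687 and 2.133 CPM in positive libraries, so the difference between the sums largely restates this gene. Of 8 tested markers 1 was higher and 3 were lower, against 18.5% and 16.3% of all tested genes. The higher one was Treml1, a receptor of platelet granules. It had 1.664, 0.9363 and 0.9924 CPM in positive libraries and 0.2062, 0.3804 and 0.1932 CPM in negative libraries. The 3 that were lower included Itga2b (log2 fold change -3.85 ± 0.50, edgeR adjusted p = 0.0166) and Gp5, a chain of the platelet receptor for von Willebrand factor. Gp6, the platelet collagen receptor, was at 0 in 2 of 3 positive and 2 of 3 negative libraries. The other 4 tested markers were not called. Tubb1 had positive log2 differences in all 3 pairs (0.31, 0.59 and 0.7). Gp1ba and Gp1bb were positive in pair 1 (0.26 and 1.69) and negative in pairs 2 and 3, and F2rl2 was negative in all 3. The part of platelets and megakaryocytes in the Pf4 and Ppbp values was not tested.

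Cxcl5, a further CXCR2 ligand gene beside Ppbp on chromosome 5 (from 90759360 to 90761624), is not among the 10 members. It had 338, 45 and 56 counts in positive libraries and 3, 2 and 1 counts in negative libraries, and was called higher (edgeR adjusted p = 0.0147). No fold is given for it, since each negative library held at most 3 counts. Cxcl15, which lies between Cxcl3 and Cxcl1 on chromosome 5, had 0 counts in all 3 positive libraries and 6, 0 and 1 counts in negative libraries. Cxcl15 did not pass the filter on low counts and was not tested. Cxcl11 and Cxcl12 had at most 3 counts in any library, and Cxcl17 was not analysed here.

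Cxcl14, a chemokine best known from epithelia and other barrier tissues, lies on chromosome 13 from 56288643 to 56296551 (minus strand). It had 78.52, 22.37 and 23.08 CPM in positive libraries and 3.483, 6.579 and 6.485 CPM in negative libraries. Replicate 1 was the highest positive and the lowest negative library, and the groups did not overlap. The log2 fold change of 2.64 ± 0.72 did not pass (edgeR adjusted p = 0.0595), with 4.48, 1.76 and 1.82 in pairs 1, 2 and 3. It passed by DESeq2 (adjusted p = 0.000191), by limma-voom (0.0411) and by edgeR without the replicate block (adjusted p = 0.0126) and without replicate 1 (1.81, adjusted p = 1.24e-05).

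Cxcl16, on chromosome 11 from 70453983 to 70459984 (minus strand), encodes a transmembrane chemokine that also acts as a scavenger receptor for phosphatidylserine and oxidised lipoprotein. It had 131.0, 306.7 and 312.6 CPM in positive libraries and 81.26, 49.41 and 45.82 CPM in negative libraries. Its pattern over pairs ran opposite to that of Cxcl2, Cxcl3, Ppbp and Cxcl14, with 0.69 in pair 1 against 2.63 and 2.77 in pairs 2 and 3. The log2 fold change was 2.05 ± 0.54 and just missed the threshold (edgeR adjusted p = 0.0549). Without replicate 1 it was 2.71 and passed (edgeR adjusted p = 1.43e-06), and it also passed without the replicate block (0.0108), by DESeq2 (adjusted p = 0.000331) and by limma-voom (0.0431).

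Zmynd15 overlaps the 5′ end of Cxcl16 on the other strand, and the sources used here do not say if strand was used in counting. Its level was 10.30, 37.86 and 34.88 CPM in positive libraries and 25.12, 13.14 and 10.61 CPM in negative libraries. Its pair differences of -1.28, 1.52 and 1.71 had the same order as those of Cxcl16, so reads of the overlap cannot be assigned with certainty. Of the proteases that release CXCL16 from the membrane, Adam17 rose by 1.24 ± 0.14 on the log2 scale (edgeR adjusted p = 0.0138), and Adam10 had 0.61 ± 0.18 and did not pass (0.0739).

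Cxcl9 and Cxcl10, the interferon-induced ligands, were low in all libraries and neither was called. They are neighbours on the minus strand of chromosome 5, Cxcl9 from 92321347 to 92328079 and Cxcl10 from 92346638 to 92348889. The stretch of the Cxcl10 promoter from 230 to 181 bases before its RefSeq start is shown, read on the minus strand, because it holds a match (in capitals) to the other motif, which is of the kind bound by interferon response factors.
Cxcl10, chr5:92349070-92349119: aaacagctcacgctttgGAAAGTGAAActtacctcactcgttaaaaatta
That motif was also found before Cxcl14 and before none of the other 7 members with a window, against 2.98% of all windows.

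Cxcl9 had 1.347, 1.893 and 1.415 CPM in positive libraries and 0.6645, 0.9175 and 0.5797 CPM in negative libraries, which are 51, 93 and 67 counts against 29, 41 and 27 counts. It was the most even of the members over pairs, with log2 differences of 0.97, 1.01 and 1.22, and the groups did not overlap. The log2 fold change of 1.11 ± 0.30 did not pass (edgeR adjusted p = 0.0579), but did by DESeq2 (adjusted p = 0.0281), by limma-voom (0.0409), on the authors' normalized table (0.0262), and by edgeR without the replicate block (adjusted p = 0.0483) and without replicate 1 (0.0122).

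Cxcl10 had 4.412, 1.812 and 1.731 CPM in positive libraries and 1.169, 2.014 and 2.061 CPM in negative libraries. The groups overlapped, and the direction differed between pairs, with 1.88 in pair 1 and -0.15 and -0.25 in pairs 2 and 3. The log2 fold change was 0.48 ± 0.59 (edgeR adjusted p = 0.554) and turned to -0.19 without replicate 1 (0.482). Cxcl10 lies within Art3 on the other strand, which had at most 61 counts in any library, in negative replicate 1.

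Per exon length, the most abundant member differed between the groups. In negative libraries it was Cxcl16, with 26.90, 16.36 and 15.17 CPM per kb of exon in replicates 1, 2 and 3, above Ppbp in all 3 libraries without overlap. In positive libraries it was Ppbp in replicate 1 (468.1 CPM per kb), Cxcl16 in replicate 2 (101.5) and Pf4 in replicate 3, where Pf4 and Cxcl16 stood at 103.7 and 103.5 CPM per kb. Ppbp and Pf4 together with Cxcl16 therefore had overlapping ranges in the positive group, where the only neighbours in the order of mean levels that did not overlap were Cxcl2 and, below it, Cxcl10. In the negative group Ppbp, Pf4, Cxcl14 and Cxcl2 followed Cxcl16 with overlapping neighbours. Cxcl2 stood above Cxcl3 without overlap, Cxcl3 and Cxcl10 overlapped, and Cxcl9 and then Cxcl1 were the lowest.

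The 9 genes differed in sum as well as in order. Their summed level was 917.7, 249.1 and 286.0 CPM per kb in positive replicates 1, 2 and 3, and 41.68, 31.22 and 29.69 CPM per kb in negative replicates 1, 2 and 3. Cxcl16 made up 4.72%, 40.8% and 36.2% of that sum in positive libraries and 64.5%, 52.4% and 51.1% in negative libraries. Ppbp made up 51.0%, 20.8% and 19.4% in positive libraries and 13.7%, 11.8% and 11.1% in negative libraries. The share of Cxcl16 was thus smaller, and that of Ppbp larger, in positive than in negative libraries. Pf4 made up 27.0%, 28.9% and 36.3% in positive libraries and 4.73%, 11.9% and 11.5% in negative libraries. The share of Pf4 was also larger in each positive library than in any negative library. Exon lengths were taken from all annotated transcripts of a gene, so a gene whose long transcripts are unused is understated.

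**Figure D3:**
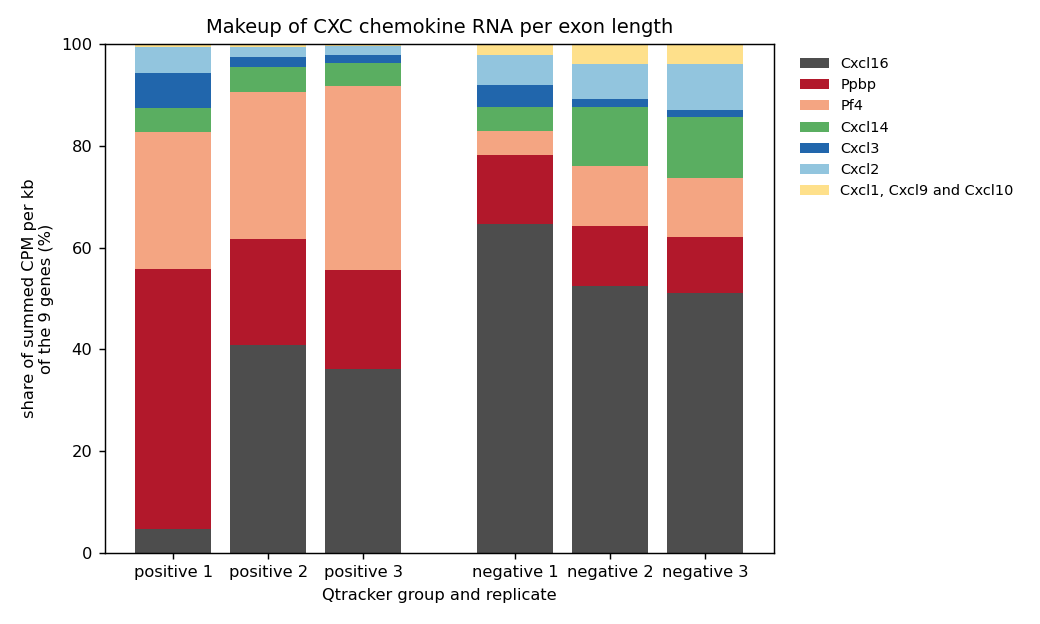
Stacked bars give each gene's share, in percent, of the summed CPM per kb of exon over the 9 CXC chemokine genes in each library, with Qtracker positive libraries on the left. Ppbp and Pf4 take most of the bar in positive replicate 1 and Cxcl16 takes 4.72% there, against 51.1% to 64.5% in negative libraries.

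The size of the difference varied between pairs. Over the 8 tested members the median log2 difference of pair 1 was 4.36, that of pair 2 was 2.20 and that of pair 3 was 2.30. Over all tested genes it lay between -0.01 and 0.01. In 6 of the 8, positive replicate 1 was at least 2-fold above the mean of positive replicates 2 and 3, against 8.24% of all tested genes. The ratio was 13.5 for Cxcl3, 2.82 for Pf4 and 2.49 for Cxcl10, while it was 0.815 for Cxcl9 and 0.423 for Cxcl16. Other lists differed by pair too. The median difference of the macrophage markers was 4.66, 2.00 and 2.07 in pairs 1, 2 and 3, and that of the neutrophil markers was -3.44, -6.44 and -6.35. The part of these differences in the chemokine values was not tested.

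Genes with the most similar pattern over the 6 libraries were found by the root mean square difference of log2 CPM after centring each gene, among 8604 genes whose mean log2 CPM reached 3. Cxcl3 was closest to Arg1, which encodes arginase (difference 0.30), and to the CC chemokine Ccl7 (0.35). Ppbp was closest to Ccl7 (0.29) and Pdpn, or podoplanin (0.41), and Cxcl2 to the CC chemokine Ccl6 (0.32) and Trib3 (0.42). Pf4 was closest to Gpnmb (0.48) and the coagulation factor F7 (0.52), Cxcl14 to Ltbp3 (0.23) and Etv5 (0.29), and Cxcl16 to Zdhhc14 (0.18) and Slc26a11 (0.22). Within the family each of these members was compared with the 5 others, since Cxcl1, Cxcl9 and Cxcl10 did not reach that level. Among those compared, Cxcl3 and Ppbp were closest to each other (0.62). Cxcl16 was farthest from the rest of them, with 1.20 to its nearest member, Cxcl14. These likenesses rest on 6 libraries of 2 groups and largely restate the group difference and replicate 1.

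Several receptor genes for these ligands were lower in Qtracker positive cells. Of 8 receptor genes 7 were tested, 4 were lower and 1 was higher, against 34.9% of all tested genes called in either direction. Cxcr2, the neutrophil receptor for CXCL1, CXCL2, CXCL3 and the trimmed Ppbp product, had 3.065, 7.735 and 7.686 CPM in positive libraries and 30.39, 506.6 and 533.9 CPM in negative libraries. It was thus high where its ligand genes Cxcl3 and Ppbp were low. Its log2 fold change was -5.23 ± 0.82 (edgeR adjusted p = 0.0221). Neutrophil markers, of which Cxcr2 is listed as a member, were lower for 9 of 11, against 16.3% of all tested genes. Their sums were 1361 to 1872 CPM in positive libraries and 2706 to 65804 CPM in negative libraries. Cxcr1, a related receptor, was also called lower, with 1, 3 and 6 counts in positive libraries and 17, 23 and 29 counts in negative libraries.

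Cxcr5, the B cell receptor for CXCL13, had 8.507, 12.62 and 11.53 CPM in positive libraries and 229.0, 89.22 and 93.15 CPM in negative libraries (log2 fold change -3.51 ± 0.51, edgeR adjusted p = 0.0194). B cell markers were lower for 7 of 8, against 16.3% of all tested genes. Their sums were 230.3 to 300.5 CPM in positive libraries and 2294 to 5607 CPM in negative libraries. Cxcr6, the receptor of CXCL16, was low in every library, at 0.0611 to 0.185 CPM in positive libraries and 0.945 to 3.51 CPM in negative libraries (log2 fold change -3.59 ± 0.57, edgeR adjusted p = 0.0222). Cxcr3, the receptor of CXCL9 and CXCL10, was not called (-0.36 ± 0.75, edgeR adjusted p = 0.727) and had log2 differences of -2.29 in pair 1 and 0.50 and 0.52 in pairs 2 and 3. Markers of NK and T cells, which carry Cxcr3 and Cxcr6, were lower for 8 of 8, against 16.3% of all tested genes. Their sums were 3.76 to 8.38 CPM in positive and 23.6 to 107.7 CPM in negative libraries. The part of these cell types in the receptor values was not tested. Cxcr4, the receptor of CXCL12, rose by 0.83 ± 0.20 on the log2 scale (edgeR adjusted p = 0.0491), and the groups overlapped, since negative replicate 3 exceeded positive replicate 1.

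**Figure D4:**
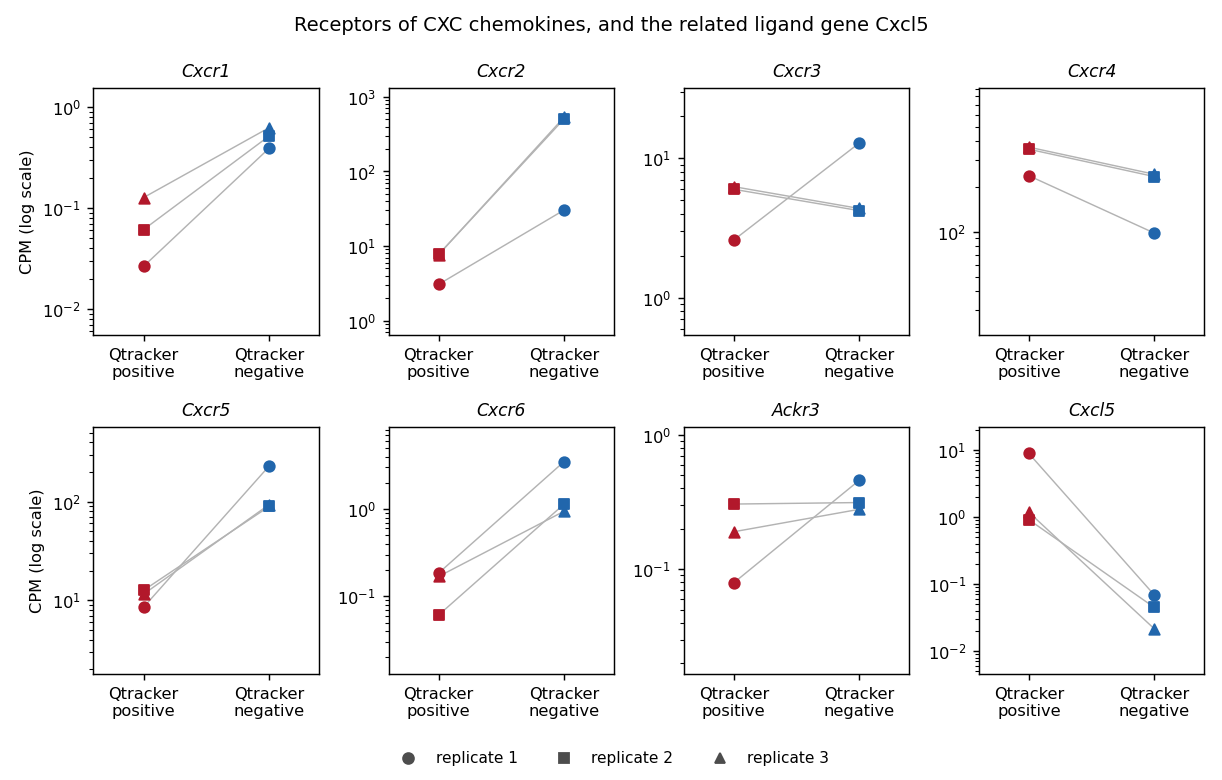
CPM on a log axis is plotted for 7 receptor genes of CXC chemokines and for the ligand gene Cxcl5, with Qtracker positive libraries on the left, Qtracker negative libraries on the right, and a line joining libraries of the same number. Cxcr1, Cxcr2, Cxcr5 and Cxcr6 are lower in all 3 positive libraries than in any negative library, and Cxcl5 is higher.

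Genes of the pathways that induce these ligands were called in both directions. Of 16 genes of the NF-kappaB list, which holds inducers, subunits and feedback inhibitors, 2 were higher and 3 lower. These counts are near the shares over all tested genes, 18.5% higher and 16.3% lower. The median log2 fold change of the list was -0.13, near the -0.01 of all tested genes. The cytokine Il1a rose, with 41.37, 12.13 and 13.39 CPM in positive libraries and 1.077, 0.5819 and 0.408 CPM in negative libraries (log2 fold change 4.90 ± 0.27, edgeR adjusted p = 0.00643), and the inhibitor Tnfaip3, which encodes A20, rose by 0.55 ± 0.10 (0.0284). The cytokine Il1b (log2 fold change -0.74 ± 0.18), the subunit Nfkb1 (-0.91 ± 0.18) and the cofactor Nfkbiz (-0.64 ± 0.12) were lower, with edgeR adjusted p of 0.0488, 0.0325 and 0.0284. Tnf did not pass (0.65 ± 0.71, edgeR adjusted p = 0.507), and, like Cxcl10, had a positive difference in pair 1 (2.54) and negative ones in pairs 2 and 3 (-0.28 and -0.12).

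Of 13 tested genes of the interferon pathway list 3 were higher and 1 lower, against 18.5% and 16.3% of all tested genes. The median log2 fold change of the list was 0.28. The receptor chains Ifnar1 (1.20 ± 0.12), Ifnar2 (1.38 ± 0.32) and Ifngr2 (0.88 ± 0.18) rose, and the kinase Jak2 was lower (-1.20 ± 0.12), with edgeR adjusted p of 0.0112 to 0.0439. Ifng, which encodes interferon gamma, had 1, 0 and 2 counts in positive libraries and 102, 8 and 4 counts in negative libraries, and did not pass the filter.

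Lymphotoxins induce CXCL13 in lymphoid stroma. The list of this pathway holds Lta, Ltb, a receptor, a kinase, and NF-kappaB subunits that are also in the NF-kappaB list. Of its 6 genes 2 were lower and 0 higher. Over all tested genes 16.3% were lower and 18.5% higher. The 2 were Lta (-3.13 ± 0.68, edgeR adjusted p = 0.0389) and Ltb (-3.80 ± 0.38, 0.0118). An unadjusted p under 0.05 was seen for 3 of the 6, against 50.3% of all tested genes. Lta and Ltb are made by B and T cells, whose markers were lower as given above. The part of these cells in the lymphotoxin values was not tested. Of 8 sheddases and trimming proteases 2 were higher and 2 lower, against 18.5% and 16.3% of all tested genes. Mmp12, a macrophage protease that cleaves CXC chemokines, had 90.62, 31.77 and 37.59 CPM in positive libraries and 3.964, 2.708 and 2.942 CPM in negative libraries (log2 fold change 3.91 ± 0.27, edgeR adjusted p = 0.00775). Dpp4, which trims CXCL9 and CXCL10, was lower (-3.47 ± 0.47, edgeR adjusted p = 0.0177), as was the neutrophil protease Ctsg, which can trim the Ppbp product (-2.20 ± 0.54, 0.0491).

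Other marker lists also differed between the groups, set against the 18.5% higher and 16.3% lower over all tested genes. Basophil, mast cell and eosinophil markers were lower for 7 of 9 and higher for 2. The 2 were the eosinophil granule genes Prg2 (log2 fold change 2.68 ± 0.15, edgeR adjusted p = 0.00656) and Epx (3.82 ± 0.32, 0.00977). The eosinophil surface genes Siglecf (-2.77 ± 0.38) and Ccr3 (-2.95 ± 0.53) were lower. Dendritic cell markers were lower for 5 of 7 and higher for 0. Of 7 tested stromal and endothelial markers 1 was higher, the growth factor receptor gene Kdr, and 1 was lower, Egfl7, with a median log2 fold change of -0.49. The summed level of this list was 28.6 to 32.9 CPM in positive libraries and 6.51 to 10.6 CPM in negative libraries. Kdr made up most of the positive sum, with 24.7, 28.25 and 27.09 CPM in positive libraries and 0.4812, 1.813 and 1.997 CPM in negative libraries.

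**Figure D5:**
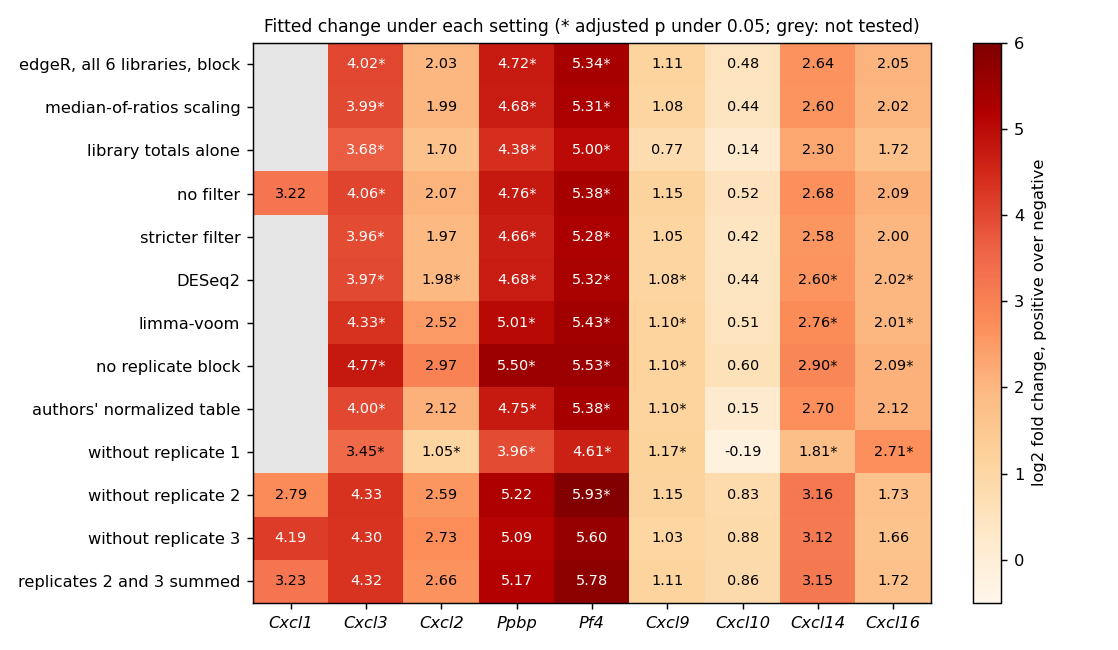
The grid gives the fitted log2 fold change of each CXC chemokine gene (columns) under each setting (rows), coloured by size, with a star where the adjusted p was under 0.05 and grey where the gene was not tested. Cxcl3 and Ppbp carry a star in 10 of 13 rows and Pf4 in 11, while Cxcl10 carries none and turns to -0.19 without replicate 1.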

How the data were processed

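Per the labels' protocols, RNA was purified from sorted cells with a column kit and made into libraries with a stranded kit. The deposited raw table holds expected counts per gene, rounded to whole numbers before deposit. FastQC, Salmon and mm10 appear in the submitters' processing notes, without versions. Which annotation and strand setting were used is not stated in these sources. The authors' normalized table holds a signal whose formula is not stated and was used only as an alternative.

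Gene coordinates and exon lengths came from GENCODE M21 (mm10), in which 21625 of 21847 identifiers were found. Of the genes, 5429 had no symbol in the file and 5210 were named from their identifiers. The filterByExpr function (about 10 counts, scaled for library size, in at least 3 libraries, and also 15 in all) left 14605 genes, scaled by TMM. The test was edgeR 4.0.16 (R 4.3.3), quasi-likelihood, with replicate number as a block. Standard errors came from the F statistic. Log2 CPM used a prior count of 2. Cxcl1 ratios of pairs 1 and 3 carry exact binomial 95% intervals. The pairing comes from the series' design text. After subtracting group means, libraries that share a number correlated at 0.2, 0.077 and 0.16, and others at -0.19 to 0.15. The code was tested on simulated data.

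The members and lists were chosen with earlier results of these data known. All members are named; of each list, called genes and those with the lowest p. Cxcl11, Cxcl12, Cxcl15, Cxcr3, Tnf, Ifng, Gp6, Gp1ba, Gp1bb, Tubb1, F2rl2, Adam10, Art3 and Zmynd15 are named as members of lists or as overlapping genes after their values were seen. Alternatives were DESeq2 1.42.0, limma-voom (limma 3.58.1), no block, median-of-ratios scaling, library totals, leaving out each replicate, summing replicates 2 and 3, filtering at 50 counts in 3 libraries or not at all, and the normalized table on log2(value + 1). A planned search of the proteins was not run. Some list members are not reported here.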

Additional observations from a re-analysis of the deposited data

How the results depend on the processing

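The 3 members called higher remained 3 in number with median-of-ratios scaling, library totals, no filter and the stricter filter, and were 4 with the authors' normalized table. The number was 7 with DESeq2, 6 with limma-voom, 6 without the replicate block, 0 to 7 with each replicate left out, and 0 with replicates 2 and 3 summed. No member was called lower in any of these settings. Over all genes, 2707 were higher and 2384 lower. Library totals alone gave 1574 higher, DESeq2 3665 lower, leaving out each replicate 0 to 5538 higher and 0 to 5352 lower, and replicates 2 and 3 summed 0 of each. Of all called genes 32.2% were higher with library totals alone and 53.2% with TMM. Library totals alone put the median log2 fold change of all genes at -0.36, against -0.01 with TMM, and all 8 members stayed above it, at 0.14 or more. The only change of direction was Cxcl10 without replicate 1, whose range over the left-out replicates was -0.19 to 0.88. The cause of these differences was not tested. Fits with a replicate left out, or with replicates 2 and 3 summed, had fewer libraries. Among fits with the same number of libraries, 5538 genes were higher without replicate 1 and 0 without replicate 3. Depth limits Cxcl1, with at most 12 counts in 5 of 6 libraries, and Cxcl9 and Cxcl10, with 27 to 167 counts.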
